A study of Mus musculus with 12 samples.

Results

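The TAM receptors Tyro3, Axl and Mertk and their secreted ligands protein S (gene Pros1) and Gas6 are 5 genes, chosen by name, of the 54532 gene identifiers measured in mouse retina. Each of the 5 names matched 1 identifier, and all 5 passed the filter on low counts, which kept 18299 genes. The retinas came from wild type C57BL/6 females aged 13 weeks, and 12 RNA libraries were sequenced, 3 in each of 4 groups. MOG mice were immunized with the myelin peptide MOG35-55 in complete Freund's adjuvant with mycobacterium, followed by pertussis toxin, which gives autoimmune encephalomyelitis with inflammation of the optic nerve. GB20 and GV16 mice were immunized in the same way and then repeatedly needled, under xylazine and ketamine, at the acupuncture site GB20 or at the control site GV16. SHAM mice are labelled sham controls; whether they received the adjuvant or the toxin is not stated, nor whether SHAM and MOG mice were anaesthetized. If they were not, needling and anaesthesia cannot be told apart in the needled groups. If SHAM mice received neither adjuvant nor toxin, these and the disease cannot be told apart in any comparison with SHAM. The methods give 2 or 3 mice a group and 3 repeats of the experiment, but not how many mice a library pools or whether its number marks a repeat, so the p-values measure the spread between these libraries.

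TAM receptors are receptor tyrosine kinases whose ligands bind exposed phosphatidylserine through a vitamin K dependent Gla domain, and so bridge a dying cell or a shed membrane to the cell that engulfs it. In the eye, Mertk on the pigment epithelium is needed for the daily uptake of photoreceptor outer segment tips, and its loss leads to photoreceptor degeneration; either ligand can serve it. The receptors also damp the interferon and Toll-like receptor response of phagocytes, Tyro3 is the TAM receptor typical of neurons, and protein S is in addition a cofactor of the anticoagulant protein C.

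Between 16637268 and 18033426 fragments per library had been counted on genes for SHAM, 16122738 and 18067710 for MOG, 16338917 and 19194280 for GB20, and 15860278 and 16198995 for GV16. At this depth Gas6 had between 3804 and 4793 counts in a library, Tyro3 between 524 and 651, Pros1 between 199 and 440, Axl between 206 and 318, and Mertk between 110 and 186. The label retina was checked against rod markers: all 12 genes of the rod list were counted, among them the rod transducin gene Gnat1 at a mean of 3260 FPKM (fragments per kilobase of gene and depth, range 2930 to 3620). Libraries that stood apart were sought in the dependence of counts on gene length. The slope of log2 CPM (counts scaled to library size) on log2 length, per doubling of length over 16041 genes, was -0.0484 in SHAM 2 and -0.0356 in GB20 1, against values between -0.0238 and 0.0298 in the other 10 libraries. Log2 fold changes between groups also went with length. Their Spearman correlation with length over these genes was 0.205 in MOG against SHAM, -0.247 in GB20 against MOG and -0.237 in GB20 against GV16. It was 0.158 in GV16 against SHAM, -0.0845 in GV16 against MOG and -0.0175 in GB20 against SHAM. SHAM 2 also differed most from its own group, with a chi-square per gene of 16.5 against SHAM 3 and 11.8 against SHAM 1, where the other pairs within a group lay between 3.03 and 6.9. Most of the members' differences against SHAM below are therefore also given without SHAM 2, and most of those of GB20 without GB20 1.

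The promoters of both ligands are printed because these genes, both ligands of the family, differed in the retina in level and in their values across the groups. They are the 250 bases upstream of the RefSeq start on GRCm38.p6, chr16:62854057-62854306 on the plus strand for Pros1 and chr8:13494536-13494785 on the minus strand for Gas6, written 5′ to 3′. Capitals mark matches to any of the 4 motifs searched on both strands.
Pros1: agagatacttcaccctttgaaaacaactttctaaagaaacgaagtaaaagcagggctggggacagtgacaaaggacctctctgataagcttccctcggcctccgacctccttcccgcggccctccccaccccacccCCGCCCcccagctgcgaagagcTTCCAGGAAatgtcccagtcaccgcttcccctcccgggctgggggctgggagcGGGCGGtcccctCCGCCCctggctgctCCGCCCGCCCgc
Gas6: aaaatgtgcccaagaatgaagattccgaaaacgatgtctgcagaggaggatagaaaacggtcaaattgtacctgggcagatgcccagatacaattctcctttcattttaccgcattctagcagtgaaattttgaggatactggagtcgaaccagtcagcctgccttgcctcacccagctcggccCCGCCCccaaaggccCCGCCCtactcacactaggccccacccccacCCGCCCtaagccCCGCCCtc
The motifs were the GC box GGGCGG, which reads as CCGCCC on the other strand, the NF-kB core GGGANTTCC, which reads as GGAANTCCC there, and the STAT motif TTCNNNGAA and E-box CACGTG, which read the same on both. They were chosen after the promoter sequences had been seen. The Pros1 promoter held 5 GC boxes, of which those beginning at -12 and -8 share bases, and 1 STAT motif beginning 92 bases before the start (position -92). The Gas6 promoter held 4 GC boxes, at -66, -51, -20 and -8. Neither held an E-box or an NF-kB core, and Gas6 held no STAT motif. The promoters of Mertk, Axl and Tyro3 held 3, 1 and 3 GC boxes and no match to the other motifs. Of 32851 mouse promoters of the same length, 32.7% held a GC box, 7.02% the STAT motif, 6.02% the E-box and 1.43% the NF-kB core. A match describes the letters of this window and not a bound site. GC content was 64.4% for Pros1 and 54.8% for Gas6.

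MOG against SHAM asks what differed in the retina with the immunization and its disease. Here Pros1 was higher in MOG, 1.58-fold, and it was the 1 member of 5 called in edgeR's quasi-likelihood test after Benjamini-Hochberg adjustment (adjusted p under 0.05 over all genes tested), where 1.34% of all genes were called (245 of 18299, 104 higher and 141 lower). The 3 MOG libraries lay all above the 3 SHAM libraries, in scaled CPM, for 3 members, Pros1, Mertk and Axl, where 16.2% of all genes had groups fully apart on that scale. The members' median log2 fold change was 0.34, with 4 of 5 above 0, against -0.00235 for all genes tested.

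GB20 against MOG asks what differed after needling at the treatment site. For Pros1 the 3 GB20 libraries lay all below the 3 MOG libraries, and it was the 1 member of 5 with groups apart (15.7% of all genes). edgeR called 0 members, where 0.24% of all genes were called (44 of 18299). An unadjusted p under 0.05 was found for 1 member, Pros1, and for 1464 of the 18299 genes. Pros1 was also called by edgeR and by DESeq2 when fitted to the 6 libraries alone, and 0 members by DESeq2 on 12 libraries or by limma on log2 FPKM. The members' median log2 fold change was -0.02.

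GV16 against MOG asks the same of the control site. In scaled CPM the groups overlapped for all 5 members (12.6% of all genes were apart), and edgeR called 0 members, where it called 0.164% of all genes (30 of 18299). No member had an unadjusted p under 0.05 (count 0), where 969 of 18299 genes did, and DESeq2 and limma called 0 as well. The median of the members was -0.05. GB20 against GV16, the direct test of the site, also had 0 members apart (8.34% of all genes). There edgeR called 0 members (0.00546% of all genes, 1 of 18299), and DESeq2 and limma called 0. At an unadjusted p under 0.05 there were 0 members, against 536 of 18299 genes, and the members' median was -0.03.

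The needled groups were also compared with SHAM. In GB20 against SHAM, Mertk and Axl, 2 of 5 members, lay all above SHAM (12.7% of all genes were apart). Both had an unadjusted p under 0.05, where 1657 of 18299 genes did. edgeR called 0 members where it called 0.344% of all genes (63 of 18299), and DESeq2 and limma called 0. In GV16 against SHAM, 4 of 5 members, all but Gas6, lay above SHAM in every library (14.5% of all genes were apart). The same 4 had an unadjusted p under 0.05, where 2001 of 18299 genes did. Here too edgeR called 0 members, where it called 0.656% of all genes (120 of 18299), and DESeq2 and limma called 0. The members' medians were 0.22 in GB20 and 0.29 in GV16. The 6 comparisons share libraries, each group entering 3 of them, so their values are not independent of each other.

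**Figure D1:**
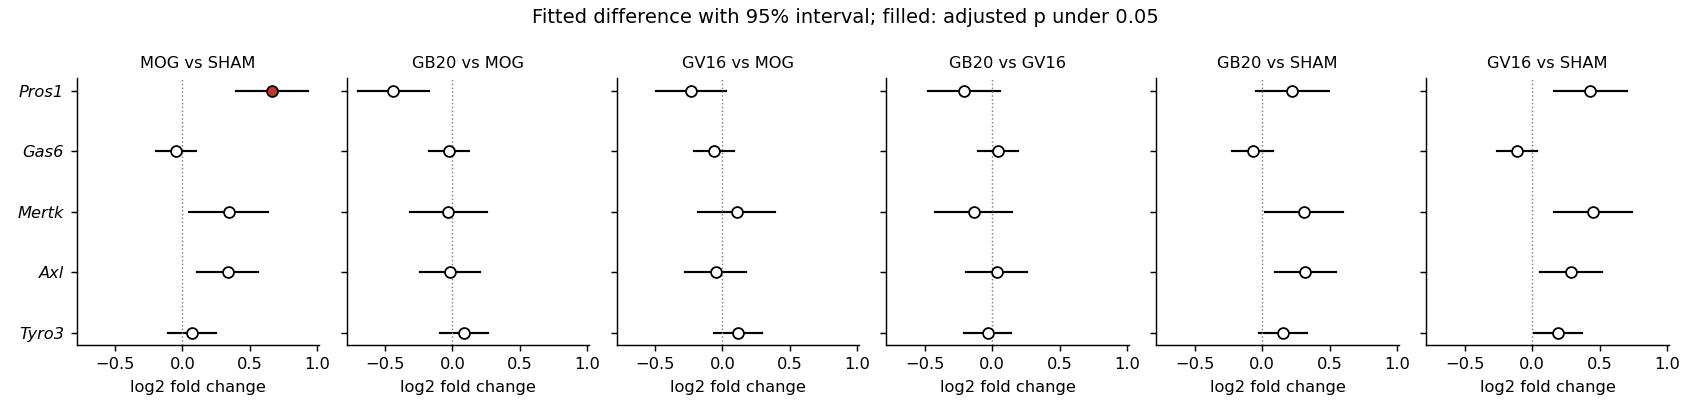
Log2 fold change of each member (points) with its unadjusted 95% interval (lines) in the 6 comparisons, from the edgeR fit to 12 libraries. A filled point has an adjusted p under 0.05. Pros1 in MOG vs SHAM, at 0.66, is the filled point, and the intervals of Pros1 in GB20 vs MOG and GV16 vs SHAM also lie clear of 0.

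The plot of fold changes shows how the members differed from each other. Only for Pros1 did the interval lie clear of 0 below MOG, and that was at GB20. Mertk and Axl had intervals above 0 in all 3 comparisons with SHAM, Tyro3 in that of GV16, and the interval of Gas6 included 0 in each of the 6. The intervals are not adjusted for the number of genes tested. Against SHAM, edgeR gave an unadjusted p under 0.05 for 2380 (MOG), 1657 (GB20) and 2001 (GV16) of 18299 genes.

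Pros1 (ENSMUSG00000022912, chromosome 16, 62854307 to 62929346, plus strand, 3 transcripts, with no exon shared with another gene) encodes protein S, the ligand that also acts in coagulation. Its level was 2.92, 4.01 and 4.53 FPKM in SHAM 1, 2 and 3, 5.87, 5.94 and 6.41 for MOG, 4.08, 4.48 and 4.89 for GB20, and 4.72, 5.91 and 4.88 for GV16. MOG and SHAM did not overlap, and neither did MOG and GB20. SHAM 1 was the lowest of the 12 libraries, GB20 overlapped both SHAM and GV16, and GV16 2 reached the level of MOG while the other GV16 libraries lay nearer to GB20. Group means were 3.82 ± 0.821 for SHAM, 6.07 ± 0.292 for MOG, 4.48 ± 0.406 for GB20 and 5.17 ± 0.649 for GV16 (SD, n = 3 libraries). In bulk tissue, more cells of a type and more RNA per cell cannot be told apart, nor can fewer cells and less RNA per cell.

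Pros1 rose in MOG against SHAM by 0.66 on the log2 scale (SE 0.129, 95% interval 0.397 to 0.931), with an adjusted p = 0.00739 in edgeR's quasi-likelihood test after Benjamini-Hochberg adjustment. The value was 0.70 (adjusted p = 0.00805) without SHAM 2, the library that stood apart, and 0.69 (adjusted p = 0.00326) with a correction for gene length. The call ended without SHAM 1 (0.50, adjusted p = 0.0541), without MOG 3 (0.63, adjusted p = 0.0632) and in limma on log2(FPKM + 1) or log2(FPKM + 0.1) (adjusted p = 0.0511 and 0.0569). It was made in 18 of 22 alternatives, over which the adjusted p ran from 1.61e-06 to 0.0632. The lowest came without the filter on low counts, and the next, 0.000583, from DESeq2 on 12 libraries. In each comparison, alternatives that leave out a library of another group keep all 6 libraries compared, so they test a call less.

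Against MOG, Pros1 in GB20 had a log2 fold change of -0.44, a fold of 0.737 (SE 0.127, 95% interval -0.704 to -0.177, unadjusted p = 0.00219, adjusted p = 0.274 by the same edgeR test). It was called in 3 of 22 alternatives: without the filter on low counts (adjusted p = 0.0242), and in edgeR (0.0247) or DESeq2 (0.0319) on the 6 libraries alone. Over all 22 the adjusted p ran from 0.0242 to 0.727 and the log2 fold change from -0.51 to -0.37, with -0.38 without GB20 1. In GV16 the value against MOG was -0.23 (SE 0.127, adjusted p = 0.987, 95% interval -0.496 to 0.029). The needled groups were not shown to differ from each other in Pros1. GB20 against GV16 gave -0.21 (SE 0.129, adjusted p = 1 by edgeR, 95% interval -0.475 to 0.0597). This value was -0.15 without GB20 1 and ran from -0.271 to -0.096 over all 22 alternatives, with 0 calls. Against SHAM, Pros1 was at 0.22 in GB20 (95% interval -0.0483 to 0.495, adjusted p = 0.675) and at 0.43 in GV16 (0.16 to 0.701, adjusted p = 0.161). The latter was called in 3 of 22 alternatives, among them those without the filter (adjusted p = 0.0192) and without SHAM 3 (0.57, adjusted p = 0.0385), and its adjusted p ran up to 0.543. Without SHAM 2 these values were 0.26 in GB20 and 0.47 in GV16, and without GB20 1 the former was 0.28, with 0 calls. Without SHAM 1 they fell to 0.06 (adjusted p = 0.96) and 0.27 (adjusted p = 0.48), and without SHAM 3 the value in GB20 was 0.36.

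**Figure D2:**
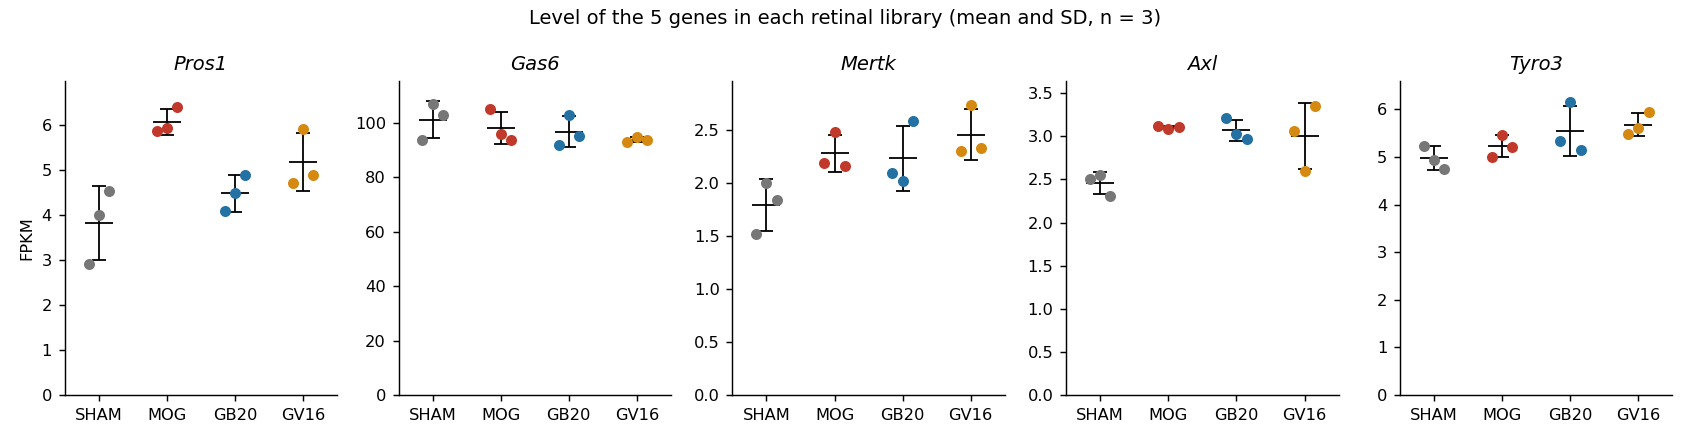
FPKM of each member in the 12 libraries (points, 3 per group in the order of their replicate numbers), with the group mean and SD (bars, n = 3); each panel has its own scale from 0. For Pros1 the MOG libraries, between 5.87 and 6.41, lie above every SHAM and GB20 library.

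Gas6 (ENSMUSG00000031451, chromosome 8, 13465374 to 13494490, minus strand, 1 transcript), the ligand without a role in the protein C pathway, was by far the more abundant ligand. Its level was 93.7, 107 and 103 FPKM for SHAM, 105, 95.8 and 93.8 for MOG, 91.9, 103 and 95.4 for GB20, and 93.0, 95 and 93.8 for GV16. All groups overlapped, and each of the 12 libraries lay between 91.9 and 107 FPKM. With group means of 101 ± 6.89, 98.1 ± 5.77, 96.6 ± 5.41 and 93.9 ± 0.974 FPKM (SHAM, MOG, GB20, GV16; SD, n = 3), it ranked 264 of 18299 genes by mean FPKM. Its log2 fold change was -0.05 in MOG against SHAM (SE 0.0719, adjusted p = 0.809, 95% interval -0.199 to 0.0991), -0.02 in GB20 against MOG (-0.172 to 0.126) and -0.06 in GV16 against MOG (-0.213 to 0.0858). Its widest difference, GV16 against SHAM, was -0.11 (95% interval -0.262 to 0.036, adjusted p = 0.598). Without SHAM 2 it was -0.07 there and -0.00245 in MOG against SHAM, and without GB20 1 it was 0.00816 in GB20 against MOG. Without SHAM 1 the values against SHAM were -0.17 in GV16 and -0.10 in MOG, and without GB20 2 that of GB20 against MOG was -0.07. The sign in MOG against SHAM and in GB20 against MOG was not the same in every alternative. Of its exons, 34 bases (1.334%) are shared with Tmem255b on the other strand.

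Because both ligands were measured in the same library, the share of Pros1 in their summed FPKM does not depend on scaling between libraries. It was 3.02%, 3.61% and 4.2% for SHAM, 5.31%, 5.84% and 6.39% for MOG, 4.25%, 4.19% and 4.88% for GB20, and 4.83%, 5.86% and 4.94% for GV16. MOG lay above SHAM and GB20 in all libraries and overlapped GV16, and GV16 lay above SHAM. The mean share was 3.61 ± 0.588% in SHAM and 5.85 ± 0.542% in MOG (SD, n = 3), a difference of 2.24 points (2-sided exact permutation test, p = 0.1). It was 4.44 ± 0.381% in GB20, or -1.41 points from MOG (exact p = 0.1), and 5.21 ± 0.567% in GV16, or -0.638 points from MOG (exact p = 0.3). GB20 differed from GV16 by -0.774 points (exact p = 0.2). With 3 libraries against 3 this test cannot go below 0.1, and over the 24 tests of shares the smallest adjusted p was 0.343.

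Mertk (ENSMUSG00000014361, chromosome 2, 128698956 to 128802894, plus strand) encodes the receptor of the pigment epithelium and of phagocytes. Its level was 1.52, 2.0 and 1.84 FPKM for SHAM, 2.19, 2.48 and 2.16 for MOG, 2.09, 2.02 and 2.58 for GB20, and 2.3, 2.73 and 2.33 for GV16. Every library of the immunized groups lay above every SHAM library, by little for GB20 2, and the immunized groups overlapped each other. The log2 fold change against SHAM was 0.34 in MOG (SE 0.141, adjusted p = 0.288, 95% interval 0.0518 to 0.635), 0.31 in GB20 (adjusted p = 0.507, 0.0206 to 0.603) and 0.45 in GV16 (adjusted p = 0.179, 0.159 to 0.741), all in edgeR's quasi-likelihood test after Benjamini-Hochberg adjustment. Against MOG it was -0.03 in GB20 (95% interval -0.317 to 0.254) and 0.11 in GV16 (-0.178 to 0.392). Without SHAM 2 the values against SHAM were 0.44, 0.40 and 0.54 in MOG, GB20 and GV16. Without SHAM 1 they fell to 0.24 in MOG and 0.35 in GV16, and without GB20 3 to 0.19 in GB20. Without GB20 1 the value in GB20 was 0.35 against SHAM and 0.01 against MOG, and no alternative called Mertk in any comparison. Over all 22 the values against MOG ran from -0.147 to 0.0357 in GB20 and from 0.0212 to 0.172 in GV16.

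Axl (ENSMUSG00000002602, chromosome 7, 25757273 to 25788705, minus strand) encodes a receptor that binds Gas6 and not protein S with high affinity and is found on activated myeloid cells and on vessels. Its level was 2.51, 2.55 and 2.31 FPKM for SHAM, 3.12, 3.09 and 3.11 for MOG, 3.21, 3.03 and 2.97 for GB20, and 3.06, 2.6 and 3.35 for GV16. All immunized libraries lay above SHAM, with GV16 2 just above it, and the MOG libraries were nearly alike. The group means were 2.46 ± 0.127, 3.11 ± 0.0178, 3.07 ± 0.126 and 3.0 ± 0.377 FPKM (SHAM, MOG, GB20, GV16; SD, n = 3). Against SHAM the log2 fold change was 0.34 in MOG (SE 0.11, adjusted p = 0.166 by edgeR, 95% interval 0.11 to 0.563), 0.32 in GB20 (adjusted p = 0.297, 0.0923 to 0.545) and 0.29 in GV16 (adjusted p = 0.311, 0.0583 to 0.515). Against MOG it was -0.02 in GB20 (95% interval -0.24 to 0.205) and -0.05 in GV16 (-0.274 to 0.174), and Axl was called in 0 of 22 alternatives of each comparison. Without SHAM 2 the values against SHAM were 0.37, 0.35 and 0.315 in MOG, GB20 and GV16, and without GB20 1 they were 0.28 in GB20 against SHAM and -0.06 against MOG. Over all 22 the values against SHAM ran from 0.25 to 0.37 in MOG, 0.235 to 0.35 in GB20 and 0.20 to 0.375 in GV16. Those against MOG lay on both sides of 0, from -0.0569 to 0.00449 in GB20 and from -0.135 to 0.0408 in GV16.

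Tyro3 (ENSMUSG00000027298, chromosome 2, 119797733 to 119818104, plus strand), the receptor typical of neurons, had the highest level of the receptors. It stood at 5.24, 4.93 and 4.74 FPKM for SHAM, 5.0, 5.46 and 5.21 for MOG, 5.34, 6.15 and 5.15 for GB20, and 5.48, 5.61 and 5.95 for GV16. MOG and GB20 overlapped SHAM, and the GV16 libraries lay above every SHAM library. Above MOG the nearest values were 5.48 and 5.46 FPKM, and in scaled CPM GV16 and MOG overlapped. Its log2 fold change was 0.07 in MOG against SHAM (SE 0.0861, adjusted p = 0.77 by edgeR, 95% interval -0.108 to 0.248) and 0.19 in GV16 against SHAM (adjusted p = 0.416, 0.0111 to 0.367). Against MOG it was 0.08 in GB20 (95% interval -0.0923 to 0.262) and 0.12 in GV16 (-0.0585 to 0.297). Without SHAM 2 it was 0.07 in MOG and 0.18 in GV16 against SHAM, and without GB20 1 it was 0.11 in GB20 against MOG. The latter was 0.00687 without GB20 2, the highest library, and 0.13 without GB20 3; over all 22 the values against SHAM ran from 0.04 to 0.11 in MOG and 0.155 to 0.23 in GV16.

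Compared per length, in FPKM, the order of the mean levels was Gas6, Tyro3, Pros1, Axl, Mertk in SHAM, GB20 and GV16. In MOG, Pros1 stood above Tyro3, and its 3 libraries all exceeded the 3 values of Tyro3 there (5.87 to 6.41 against 5.0 to 5.46 FPKM). Neighbours in the order did not overlap, except in GV16, where Tyro3 overlapped Pros1 and Axl overlapped Mertk. Gas6 exceeded the next gene 20.4-fold in SHAM, 16.2-fold in MOG, 17.4-fold in GB20 and 16.5-fold in GV16, as ratios of mean FPKM. Among the receptors, Tyro3 made up 53.9 ± 2.32% of the summed FPKM in SHAM, 49.3 ± 0.661% in MOG, 51.1 ± 3.45% in GB20 and 51.0 ± 0.386% in GV16 (SD, n = 3). MOG lay below SHAM in every library, by -4.69 points (2-sided exact permutation test, p = 0.1, the smallest possible), and GV16 did so by -2.94 points (exact p = 0.1), with GV16 1.75 points above MOG (exact p = 0.1). SHAM 2 had the lowest share of its group, 52.0%, against at most 49.8% in MOG and 51.3% in GV16. The share of Axl was 26.7 ± 0.568% in SHAM and 29.3 ± 1.18% in MOG, 2.67 points apart with no overlap (exact p = 0.1), and 28.3 ± 1.65% in GB20 and 26.9 ± 2.75% in GV16, which overlapped the other groups. The share of Mertk, between 16.4% and 24.9% over the 12 libraries, overlapped in all comparisons. The 3 receptor shares add up to the whole, so a lower share of Tyro3 and higher shares of the others are not separate results. The level of Tyro3 itself was not lower, with mean FPKM of 4.97 in SHAM, 5.23 in MOG and 5.68 in GV16.

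**Figure D3:**
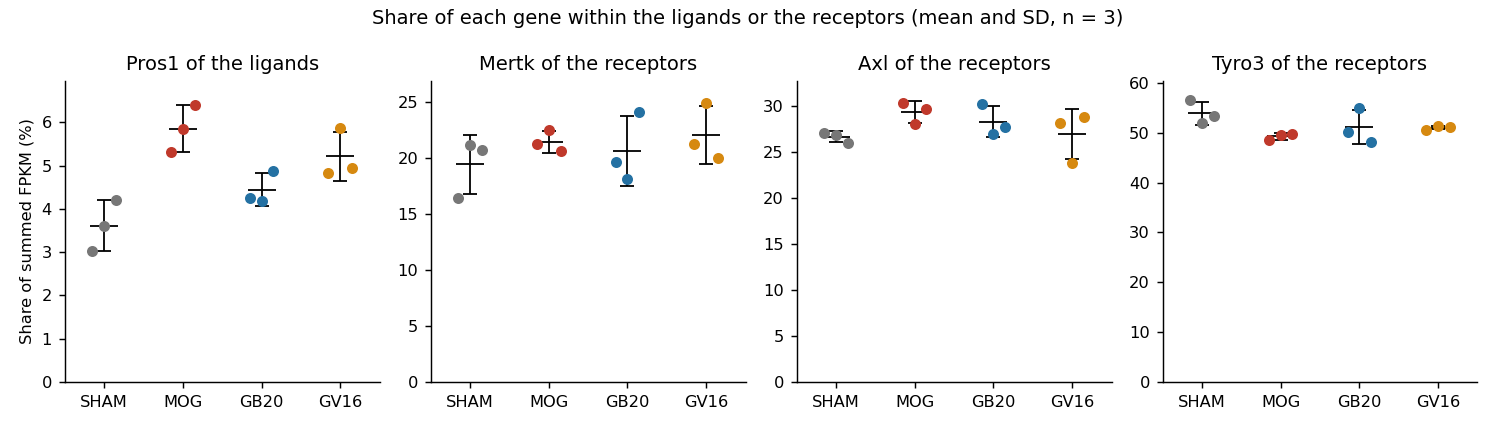
Share of summed FPKM, in percent, of Pros1 within the 2 ligands and of each receptor within the 3 receptors, in each library (points) with the group mean and SD (bars, n = 3). The Pros1 share in MOG, between 5.31% and 6.39%, lies above SHAM and GB20, and Tyro3 has the largest receptor share in every library.

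Around the receptors, 100 genes in 7 lists cover how the ligands are made, what they bind and what the receptors act through, and 86 of them were tested. edgeR called 2 of the 86 higher in MOG against SHAM, C4b and C1qa, and 0 lower (15 at an unadjusted p under 0.05, 2 called by DESeq2 on 12 libraries, 1 by limma). Their median log2 fold change was 0.03, and 14 of 86 had groups apart, where 16.2% of all genes did. Of all 18299 genes, 2380 had an unadjusted p under 0.05 in this comparison. For GB20 against MOG it called 0 of 86 (8 at an unadjusted p under 0.05, 0 called by DESeq2 on 12 libraries or limma, 1 by DESeq2 or edgeR on the 6 libraries), with a median of -0.03. For GV16 against MOG it called 0 (5 at an unadjusted p under 0.05, 0 by DESeq2 or limma, median -0.01), and for GB20 against GV16 also 0 (3 at an unadjusted p under 0.05, 0 by DESeq2 or limma, median -0.01). Against SHAM it called C4b higher in GB20 and in GV16 and 0 lower (medians 0.03 and 0.02). In GB20 against SHAM 13 had an unadjusted p under 0.05, and DESeq2 on 12 libraries called 5, DESeq2 and edgeR on the 6 libraries 1 each, and limma 1. In GV16 against SHAM 11 had an unadjusted p under 0.05, and these tools called 2, 1, 1 and 0 or 1.

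In human plasma, protein S is bound in part to C4b-binding protein, whose other partner is complement component C4. Whether this link holds in the mouse was not tested, so the values of C4b are not read as a result about protein S. The C4 gene C4b was in the list of protein S partners in coagulation control (8 of 13 tested). C4b stood at 1.03, 1.53 and 1.03 FPKM for SHAM, 2.94, 4.15 and 4.86 for MOG, 4.01, 3.7 and 3.63 for GB20, and 3.21, 2.2 and 3.67 for GV16. All immunized libraries lay above SHAM, and the needled groups overlapped MOG. C4b rose 3.32-fold in MOG against SHAM (log2 fold change 1.73, SE 0.22, adjusted p = 0.00133 by edgeR), by 1.66 in GB20 against SHAM (SE 0.22, adjusted p = 0.00494) and by 1.34 in GV16 against SHAM (SE 0.224, adjusted p = 0.0144). These calls were made in 22, 20 and 18 of 22 alternatives, and because C4b has a near-identical neighbour, C4a, the assignment of its reads is uncertain. The other 7 genes tested in that list, which include partners in the protein C pathway, were not called in any comparison, and Proc, the gene of protein C itself, had no count.

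C1qa encodes a chain of C1q, which like the TAM ligands bridges dying cells to phagocytes, and was in the list of other apoptotic cell receptors and bridging factors (21 of 24 tested, Timd4 without a count, median 0.11 in MOG against SHAM). It stood at 4.67, 5.55 and 2.43 FPKM for SHAM, 7.19, 8.29 and 9.67 for MOG, 10.4, 7.79 and 6.31 for GB20, and 7.49, 8.14 and 6.51 for GV16. MOG and both needled groups lay above SHAM in every library. C1qa rose in MOG against SHAM by 0.99 on the log2 scale (SE 0.236, adjusted p = 0.0451 by edgeR), a call made in 10 of 22 alternatives (adjusted p from 1.38e-06 to 0.227). It ended in edgeR on the 6 libraries, in both limma fits, and on leaving out SHAM 1, SHAM 3, any MOG library, GB20 2 or any GV16 library.

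In the 5 other lists edgeR called 0 genes in all 6 comparisons. Vitamin K dependent carboxylation, which makes the Gla domain of both ligands, had 5 of 6 genes tested (in MOG against SHAM, as for the next 4 lists, median 0.06 and smallest adjusted p = 0.616), led by Vkorc1l1 at 12.8 and the carboxylase Ggcx at 9.2 FPKM. Phosphatidylserine exposure and flipping, the control of the signal the ligands bind, had 11 of 13 (median 0.10, smallest adjusted p = 0.173), led by the flippase Atp11a at 48.4 and its subunit Tmem30a at 45.0 FPKM. Engulfment and signalling partners had 20 of 20 (median -0.03, smallest adjusted p = 0.0924), led by Ran at 62.2 and the adaptor Crk at 32.5 FPKM. Interferon feedback partners had 10 of 12 (median 0.17, smallest adjusted p = 0.216), led by Jak1 at 20.2 and the interferon receptor gene Ifnar1 at 9.67 FPKM. Sheddases and transcriptional regulators of the receptors had 11 of 12 (median -0.03, smallest adjusted p = 0.192), led by the nuclear receptors Nr1h2 at 25.7 and Rxrb at 18.1 FPKM. In these lists 0, 1, 3, 3 and 1 genes had an unadjusted p under 0.05 in MOG against SHAM, and DESeq2 and limma called 0. In the other comparisons these counts were between 0 and 3, limma called 0, and DESeq2 on 12 libraries called 1 engulfment gene in GB20 against SHAM and 1 gene of the regulators in each needled group against SHAM.

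**Figure D4:**
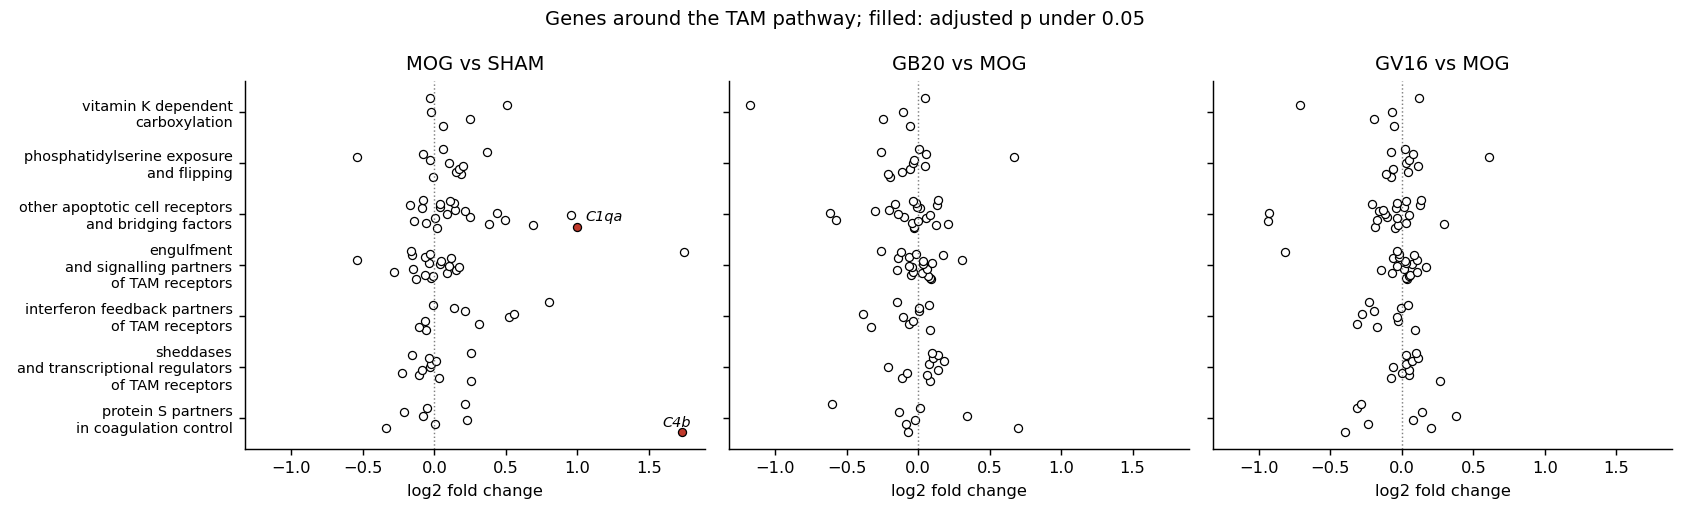
Log2 fold change of each of the 86 tested genes (points) in the 7 lists around the TAM pathway, with 1 panel each for MOG vs SHAM and for the needled groups GB20 and GV16 vs MOG, on 1 common axis; filled points have an adjusted p under 0.05. C1qa at 0.99 and C4b at 1.73 in MOG vs SHAM are the filled points.

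The plot of the pathway genes shows each list with genes on both sides of 0 in MOG against SHAM.

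Markers of the cell types a retinal sample could hold were read beside the members, and their part in the members' values was not tested. Microglia markers (14 of 14 tested, none at 0) summed to 23.8, 24.8 and 22.3 FPKM for SHAM, 35.6, 33.1 and 34.9 for MOG, 36.6, 31.9 and 29.8 for GB20, and 37.5, 32.6 and 31.9 for GV16. The sum was above SHAM in all immunized libraries, as the levels of Mertk and Axl were. Csf1r (0.59, adjusted p = 0.0269) and Ctss (0.98, adjusted p = 0.0015) rose in MOG against SHAM by edgeR, Ctss also in GB20 and both in GV16 against SHAM, while 0 changed between a needled group and MOG (0 by DESeq2 or limma, 0 and 1 at an unadjusted p under 0.05 for GB20 and GV16). Csf1r was called in 15 of 22 alternatives for MOG and in 6 of 22 for GV16. Ctss was called in 22 of 22 for MOG and for GV16 and in 17 of 22 for GB20. Its call in GB20 ended in both limma fits and without SHAM 1, SHAM 3 or GB20 1. Pigment epithelium and melanocyte markers (16 of 18 tested), the cells in which Mertk acts on outer segments, summed to 94.1, 94.3 and 101 FPKM for SHAM, 112, 116 and 111 for MOG, 111, 115 and 113 for GB20, and 103, 125 and 114 for GV16. This sum too was above SHAM in all immunized libraries. Its most abundant genes, Otx2 at 59.4 FPKM and Trpm1 at 24.6, are also expressed by the neural retina and make up most of it. Mean levels in SHAM and MOG were 55.5 and 59.4 FPKM for Otx2, 23.0 and 26.3 for Trpm1, and 6.52 and 11.8 for Ttr. Of the 16 genes tested, 15, 15 and 14 lay above 0 in MOG, GB20 and GV16 against SHAM (medians 0.193, 0.275 and 0.338). edgeR called 0 of these genes in any comparison, with 5 at an unadjusted p under 0.05 in MOG against SHAM, 1 called there by DESeq2 on 12 libraries, 3 by DESeq2 and 3 by edgeR on the 6 libraries, and 0 by limma. In GB20 against SHAM 8 of 16 had an unadjusted p under 0.05, and these tools called 1, 3, 2 and 0, in the same order. In GV16 against SHAM 5 had an unadjusted p under 0.05, and the tools called 1, 1, 0 and 0. Between a needled group and MOG 0 had an unadjusted p under 0.05, and the tools called 0.

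Gliosis markers (12 of 12 tested, led by Vim at 22.6 FPKM) summed to 63.2, 72.3 and 62.9 FPKM for SHAM, 109, 117 and 128 for MOG, 111, 115 and 99.8 for GB20, and 97.2, 85.3 and 110 for GV16. They were above SHAM in every immunized library, with MOG overlapping both needled groups. In MOG against SHAM, where Pros1 rose, 9 of 12 rose and 0 fell, among them Fgf2 (1.13, adjusted p = 9.51e-07), Osmr (1.36, adjusted p = 5.35e-06) and Stat3 (0.71, adjusted p = 0.000224), each by edgeR. In GB20 against MOG, where Pros1 lay lower, Osmr fell (-0.67, adjusted p = 0.0302, called in 15 of 22 alternatives), and in GV16 against MOG Osmr (-0.66, adjusted p = 0.0472, 11 of 22) and Fgf2 (-0.52, adjusted p = 0.0235, 17 of 22) fell. Against SHAM, edgeR called 6 higher in GB20 and 5 in GV16, with 12 and 8 at an unadjusted p under 0.05. DESeq2 on 12 libraries called 9 and 8, DESeq2 on the 6 libraries 9 and 7, and edgeR on the 6 called 7 and 5. limma called 2 in GB20, and in GV16 1 or 3 by the value added to FPKM. In GB20 the 6 calls were made in between 13 (Serpina3n, Osmr) and 22 (Fgf2) of 22 alternatives, and those of Serpina3n and Gfap ended with replicate numbers as blocks. Müller glia markers (12 of 12 tested, led by Glul at 588 FPKM) summed to between 1200 and 1390 FPKM with overlapping groups. Aqp4 and Crym rose in MOG against SHAM, and in each needled group against MOG both fell and Car14 rose; in GV16 against SHAM Rlbp1 fell. These calls were made in between 10 and 22 of 22 alternatives.

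Retinal ganglion cell markers (12 of 12 tested, led by Sncg at 58.0 FPKM) summed to 314, 312 and 280.0 FPKM for SHAM, 187, 162 and 159 for MOG, 200, 197 and 202 for GB20, and 218, 172 and 151 for GV16. All immunized libraries lay below SHAM, and GB20 lay above MOG in every library. By edgeR 11 of 12 fell in MOG, 4 in GB20 and 10 in GV16 against SHAM. The smallest adjusted p in MOG were those of Nefl (-0.94, adjusted p = 3.48e-05), Sncg (-0.93, adjusted p = 0.000148) and Nefh (-0.88, adjusted p = 0.000366), and the widest fall that of Isl2 (-1.14, adjusted p = 0.00057). At an unadjusted p under 0.05 the counts were 11 in each of these comparisons. DESeq2 on the 6 libraries called 10, 9 and 9 in MOG, GB20 and GV16, edgeR on the 6 called 10, 8 and 6, DESeq2 on 12 called 11, 8 and 10, and limma 8, 0 and 6. Between GB20 and GV16 edgeR called 0 (1 at an unadjusted p under 0.05, 0 by the other tools). edgeR called 0 of them in GB20 against MOG (4 at an unadjusted p under 0.05, 0 by DESeq2 on 12 libraries or limma, 1 by DESeq2 or edgeR on the 6) and 0 in GV16 against MOG (0 at an unadjusted p under 0.05, 0 by DESeq2 or limma). The sum of the rod markers, between 14300 and 16100 FPKM, overlapped between all groups, and edgeR called 0 of its genes in MOG against SHAM (2 at an unadjusted p under 0.05, 0 by DESeq2 or limma).

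**Figure D5:**
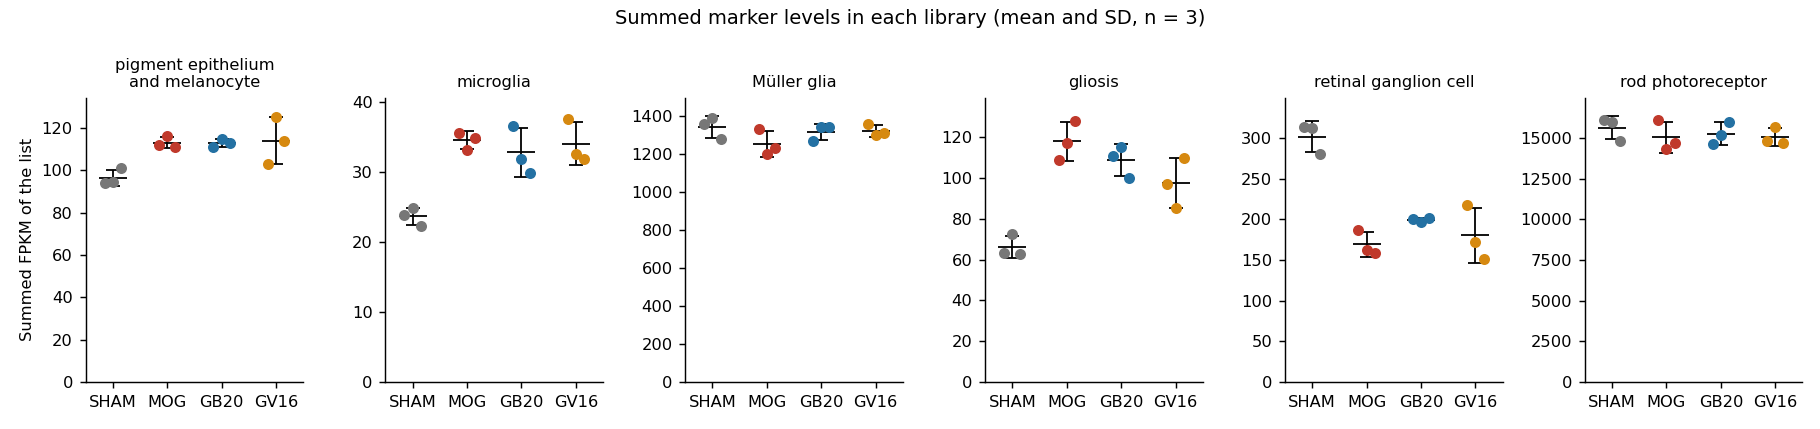
Summed FPKM of 6 marker lists in each library (points) with the group mean and SD (bars, n = 3); each panel has its own scale from 0. Gliosis, microglia and pigment epithelium sums lie above SHAM in every immunized library, and ganglion cell sums lie below it.

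The other lists covered further cells that a dissected retina can carry, among them the myeloid and vascular cells known to express Axl. Of the infiltrating myeloid markers 3 of 10 were tested and 7 had a mean under 0.1 FPKM; their sum was 1.82, 2.17 and 1.93 FPKM for SHAM, 2.76, 9.13 and 2.36 for MOG, 4.42, 2.6 and 2.25 for GB20, and 3.38, 2.37 and 1.52 for GV16, led by Lyz2 at 1.72. MOG and GB20 lay above SHAM in every library, as they did for Mertk and Axl, and GV16 overlapped SHAM. In GB20 and SHAM the mean was 1.74 and 0.749 FPKM for Lyz2, 0.889 and 0.87 for Cd14, and 0.169 and 0.179 for Ms4a7. The median log2 fold change of the genes tested was 0.0445 there. Of the T cell markers 1 of 10 was tested, with a sum between 0.315 and 1.14 FPKM led by Lck at 0.319. Vascular endothelium (12 of 12 tested, led by Kdr at 15.3 FPKM) summed to between 43.6 and 47.4 FPKM for SHAM, 45.8 and 48.3 for MOG, 40.5 and 44.1 for GB20, and 36.8 and 46.6 for GV16. GB20 lay below MOG in every library, as it did for Pros1, and the other groups overlapped. In GB20 against MOG 4 of the 12 vascular genes lay above 0, the median log2 fold change was -0.133, and a link to Pros1 was not tested. Mural cells (10 of 10, led by Vtn at 397) summed to between 415 and 484 FPKM for SHAM, 370.0 and 400.0 for MOG, 412 and 438 for GB20, and 397 and 428 for GV16, with MOG below SHAM and GB20 in every library. This order is that of Vtn, which makes up most of the sum: in GB20 against MOG 2 of the 10 genes lay above 0 and the median was -0.15. Markers of choroid, sclera and meninges (5 of 8 tested, Lum without a count, led by Igfbp2 at 8.49) summed to between 10.2 and 15, and blood (3 of 6, led by Hba-a1 at 6.11) to between 6.76 and 14.5 FPKM. Lens markers (4 of 10 tested, led by Crybb1 at 0.435) summed to 10.6 FPKM in SHAM 2 and 5.74 in GB20 2, and to between 0.625 and 1.69 in the other 10 libraries. edgeR called 0 genes of these 7 lists in all 6 comparisons, as did DESeq2 and limma, with between 0 and 5 genes of a list at an unadjusted p under 0.05. Astrocyte markers (8 of 8, led by Aldoc at 126 FPKM) summed to between 158 and 181, and Gfap, also a gliosis gene, rose in MOG (1.25, adjusted p = 0.00287) and in GB20 (1.15, adjusted p = 0.0134) against SHAM by edgeR, in 22 and 18 of 22 alternatives. The call in GB20 ended with replicate numbers as blocks and in the fits without SHAM 1, SHAM 3 or GB20 2. In GV16 against SHAM Gfap stood at 0.84 (adjusted p = 0.0577 by edgeR), with every library above SHAM, and 1 gene of the list was called by DESeq2 on 12 libraries and by DESeq2 and edgeR on the 6.

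Pros1, the member called in a comparison, was matched with 18298 other genes by the root mean square difference of centred log2(CPM + 0.5) profiles over the 12 libraries; its own profile has a root mean square of 0.294. The closest were E530001F21Rik (0.152), a processed pseudogene whose reads may belong to its parent gene, and the non-coding RNA Gm26768 (0.155). Next came Hpx (0.163), the plasma heme carrier hemopexin, Ddn (0.167), the postsynaptic protein dendrin, and mt-Nd4l (0.168), a mitochondrial subunit of complex I whose gene overlaps its neighbour. Hpx had mean levels of 0.503, 0.984, 0.666 and 0.815 CPM in SHAM, MOG, GB20 and GV16, next to 15.8, 25.0, 18.5 and 21.3 CPM for Pros1 (n = 3 libraries each). The value 0.5 was added after the data had been seen.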

How the data were processed

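Groups of the 12 retinal RNA libraries were taken from the labels. The authors aligned the reads with HISAT2 2.0.5 to mm10 and counted fragments per gene with FeatureCounts, and they deposited each count as a whole number. The deposited FPKM values were computed by the authors from the count and the gene length. Annotation release, strand setting and the treatment of multimapping reads are not given in the sources that were used. The tables held 54532 identifiers and 0 columns from other samples; names and coordinates came from GENCODE vM21 on GRCm38, promoters from RefSeq on GRCm38.p6 (5 of 5 members matched).

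Counts were fitted in R 4.3.3 with edgeR 4.0.16: filterByExpr over the 4 groups (18299 genes), TMM scaling, 1 mean per group and a robust quasi-likelihood test with 8 residual degrees of freedom, adjusted by Benjamini-Hochberg over all genes tested and called under 0.05. SEs came from the F value. Alternatives used DESeq2 1.42.0, limma 3.58.1, other filters and scaling, a block, a length correction and leaving out each library. The fits were tested on simulated data. Shares were compared by 2-sided exact permutation in Python 3.11.15 (pandas 2.3.3, numpy 2.4.6), and figures drawn with matplotlib 3.10.9.

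Named are the 5 members; in each pathway list the called genes, or otherwise the 2 with the highest mean FPKM; in most marker lists the most abundant gene, and in each those without a count and up to 3 called; and the 5 genes most like a called member. Genes named beyond this were chosen after their values were seen. Members and lists were chosen with earlier results of these data known.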

Additional observations from a re-analysis of the deposited data

How the results depend on the processing

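Of 300 member values under 10 alternatives, 293 stayed on their side of the threshold, 2 lost a call, 5 gained one and 0 called values reversed; leaving out 1 library gave 357, 2, 1 and 0 of 360. In MOG vs SHAM, 245 genes were called, against 539 without the filter on low counts, 404 with replicate numbers as blocks, 117 in limma on log2(FPKM + 1), 106 with 0.1 added, and 91 to 427 with 1 library left out. The members called fell from 1 to 0 in both limma fits (Pros1 0.567 and 0.677 in place of 0.66) and lay between 0 and 1 with 1 library left out (Pros1 0.504 to 0.805). In GB20 vs MOG, 44 genes became 140 without the filter, 126 in DESeq2 and 118 in edgeR on the 6 libraries, 73 with blocks, 14 and 15 in limma, and 13 to 83 with 1 library left out; the first 3 called 1 member, Pros1 (-0.436, -0.441 and -0.441). In GV16 vs MOG, 30 became 73, 57, 48, 47, 6 and 5 in the same order, and 10 to 38 with 1 library left out. In GB20 vs GV16, 1 became 8 without the filter, 5 in DESeq2 on 12 libraries, 4 in DESeq2 and 3 in edgeR on the 6, 0 and 0 in limma, and 0 to 4 with 1 library left out. In GB20 vs SHAM, 63 became 282, 152 and 124 without the filter and in DESeq2 on 12 and 6 libraries, 182 with blocks, 121 with the length correction, 14 and 11 in limma, and 14 to 116 with 1 library left out. In GV16 vs SHAM, 120 became 395 without the filter, 202 in DESeq2 on 12 libraries, 66 in edgeR on the 6, 236 with blocks, 36 and 39 in limma, and 23 to 231 with 1 library left out; 1 member, Pros1, was called without the filter (0.429) and with blocks (0.44, adjusted p = 0.0476 by edgeR), and 0 to 1 with 1 library left out (0.27 to 0.572). Leaving the filter out tests 34538 genes and the fits to 6 libraries use fewer samples; beyond that the cause was not tested. Replicate numbers were not taken as pairs: residuals of the 18 pairs of libraries with the same number correlated across genes by -0.0972 to 0.356 (median 0.0374), and of the 36 others by -0.288 to 0.154 (median -0.0308), with 6 and 3 over 0.1. All 3 pairs of SHAM and GB20 were over 0.1 (0.113, 0.356 and 0.237), and in no other comparison were all 3; with blocks, Pros1 in GB20 vs SHAM was 0.234 (adjusted p = 0.449 by edgeR). Of the gliosis genes called against SHAM, the blocks lost Serpina3n in both needled groups and Gfap in GB20. As a hint from the data and not the design, 9 of 12 libraries correlated best with one of their own number. The lowest counts were 110 for Mertk and 199 for Pros1, both in SHAM 1.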
